A study of Mus musculus with 12 samples.

Results

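The genes described here encode the UDP-glucuronosyltransferases (UGT), cytosolic sulfotransferases (SULT) and glutathione S-transferases (GST) of the mouse, the enzymes of phase II metabolism. They were taken by gene symbol, as all protein-coding genes of the Ugt1a, Ugt2a, Ugt2b, Ugt3a, Sult, Gst and Mgst series, and number 67 of the 53715 genes in the count table, 21 UGT, 21 SULT and 25 GST genes including 3 Mgst genes. Pseudogenes of the same series, 7 in number, were left out. No measured value entered the choice of the 67 genes.

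RNA of 12 libraries was compared, 4 biological replicates in each of 3 groups of C57BL/6JOlaHsd mouse liver cells. Hepatoblasts were Dlk1+ cells sorted with magnetic beads from E14.5 livers, several embryonic livers pooled per isolation, and lysed without culture. Diff. hepatocytes were such hepatoblasts differentiated for 4 days on fibronectin in a medium that held fetal bovine serum, insulin, dexamethasone and dissolved Matrigel. Mature hepatocytes were prepared by collagenase perfusion from adult male mice of 8 to 12 weeks and lysed without culture. The sex of the pooled embryos was not given, and all adult donors were male, so age and sex cannot be told apart in either comparison with mature hepatocytes, nor can culture from them between Diff. and mature hepatocytes. These are bulk libraries, in which fewer cells of a type and less RNA per cell cannot be told apart.

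Phase II enzymes attach a polar group to drugs, hormones, bilirubin and bile acids so that the conjugate can be excreted in bile or urine. UGT enzymes transfer the sugar of UDP-glucuronic acid inside the endoplasmic reticulum, SULT enzymes transfer sulfate from PAPS in the cytosol, and GST enzymes add glutathione to electrophiles. The liver is their main site, many of them are low before birth, and in the mouse several Sult2a genes are known to be lower in adult males than in females.

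The UGT1A enzymes share their last exons and differ in a first exon with its own promoter, and most of the other genes lie in clusters of near copies. The 9 Ugt1a genes span chr1:88055388-88220002. The 10 Ugt2a and Ugt2b genes lie with Sult1b1, Sult1d1 and Sult1e1 in chr5:86889767-87591594. The 8 Sult2a genes span 870 kb at chr7:13623967-14494230, and the 7 Gstm genes span 149 kb at chr3:107895821-108044894 (all on GRCm38).

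Sequences just before the start sites are shown because near copies in a cluster, and first exons of the Ugt1a locus, differed in their counts. Of the 67 genes, 59 had a promoter window in RefSeq (GRCm38.p6), 71 windows in all. The first set is Ugt1a1, Ugt1a6a, Ugt1a9 and Ugt2a3, which were higher in mature hepatocytes than in hepatoblasts, each with the 120 bases before its start on its own strand. The capitals mark GTTAAT or its reverse complement ATTAAC, letters that each of these stretches holds. Of the 8 Ugt1a promoter windows 4 hold these letters, while all 8 tested Ugt1a genes were higher in mature hepatocytes than in hepatoblasts. Ugt2a3 passed the filter on counts through mature hepatocytes alone. The stretches are chr1:88211839-88211958 (+), chr1:88134689-88134808 (+), chr1:88070659-88070778 (+) and chr5:87337196-87337315 (-).
Ugt1a1: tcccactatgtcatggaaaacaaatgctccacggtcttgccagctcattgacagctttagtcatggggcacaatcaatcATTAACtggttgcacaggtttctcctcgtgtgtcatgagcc
Ugt1a6a: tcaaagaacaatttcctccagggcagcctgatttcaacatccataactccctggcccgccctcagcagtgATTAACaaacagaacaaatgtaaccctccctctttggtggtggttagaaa
Ugt1a9: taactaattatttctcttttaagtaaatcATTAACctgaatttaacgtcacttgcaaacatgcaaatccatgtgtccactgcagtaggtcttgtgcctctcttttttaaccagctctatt
Ugt2a3: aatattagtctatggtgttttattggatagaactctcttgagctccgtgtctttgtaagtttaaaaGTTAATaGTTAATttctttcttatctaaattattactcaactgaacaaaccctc

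The second set is from the Sult2a cluster, in which Sult2a5 and Sult2a6 were higher in Diff. hepatocytes than in both other groups; both had over 10 counts in a library of Diff. hepatocytes alone. The stretches are chr7:13623847-13623966 (+) and chr7:14254871-14254990 (-), with the same letters in capitals.
Sult2a5: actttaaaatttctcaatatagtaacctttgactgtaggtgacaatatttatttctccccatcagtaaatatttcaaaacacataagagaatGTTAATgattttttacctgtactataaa
Sult2a6: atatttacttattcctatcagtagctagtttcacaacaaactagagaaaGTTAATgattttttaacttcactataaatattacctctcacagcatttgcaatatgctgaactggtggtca
Both hold the 15-base run GTTAATgatttttta, and Sult2a5 shares the 27 bases aagagaatGTTAATgattttttacctg with Sult2a4. Searched on both strands, the 15-base run was found in 4 of the 32851 RefSeq windows of 300 bases, those of Sult2a3, Sult2a4, Sult2a5 and Sult2a6. Sult2a3 had 12 counts in hepatoblasts, 4 in culture and 0 in the adult cells, too few to be tested. Sult2a1, Sult2a2 and Sult2a7 were not searched, since they had no window in the table used.

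The third set is from the Ugt2b genes that were higher in mature hepatocytes than in hepatoblasts, at chr5:87140341-87140460, chr5:87092556-87092675 and chr5:87424204-87424323, all on the minus strand. Ugt2b38 passed the filter on counts through mature hepatocytes alone. Here the capitals mark the longest run that all of these stretches share.
Ugt2b5: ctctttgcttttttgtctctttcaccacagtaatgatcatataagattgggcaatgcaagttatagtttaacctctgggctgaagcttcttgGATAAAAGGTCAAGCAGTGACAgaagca
Ugt2b36: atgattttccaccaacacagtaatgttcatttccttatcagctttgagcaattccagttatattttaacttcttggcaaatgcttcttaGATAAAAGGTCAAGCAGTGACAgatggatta
Ugt2b38: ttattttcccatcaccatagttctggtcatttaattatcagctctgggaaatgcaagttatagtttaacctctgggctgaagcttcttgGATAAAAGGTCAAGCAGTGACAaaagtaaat
This 22-base run stood in 4 of the 32851 windows, those of Ugt2b5, Ugt2b36, Ugt2b37 and Ugt2b38. It was not in the windows of Ugt2b1, Ugt2b34, Ugt2b35 and Ugt2a3. In mature hepatocytes the genes with the run were at 538 (Ugt2b5), 457 (Ugt2b36), 22.8 (Ugt2b38) and 2.55 (Ugt2b37) CPM per kb. Those without it were at 338 (Ugt2b1), 149 (Ugt2b34), 114 (Ugt2b35) and 178 (Ugt2a3), so genes with the run were not all above those without. A tie of the run to the level was not tested.

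Over the whole windows (250 bases before to 50 after the start, both strands), GTTAAT was found in 19.7% of the 71 windows and in 7.10% of all RefSeq windows. By family it was in 6 of 19 UGT, 7 of 20 SULT and 1 of 32 GST windows, and in 0 of the 7 Ugt2b windows. The antioxidant response element TGACNNNGC was in 4 windows, 5.63% against 12.4% of all windows; these were 12.5% of the GST windows. GCGTG, the core of the xenobiotic response element, was in 19.7% against 32.4%, TGAACT, part of sites of nuclear receptors, in 16.9% against 14.0%, and TGGACTTTG of HNF4 in 1.41% against 0.475%. A match describes letters in a window and was not tied to binding.

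Values are CPM, a gene's counts relative to the total counts of its library, scaled between libraries by TMM, the trimmed mean of M values. Levels of different genes were compared as CPM per kb of the exon bases that a gene shares with no other gene on its strand. The 12 libraries held from 19581551 to 25216977 counts each. A gene was tested if any library had more than 10 counts, and it was called higher or lower at an adjusted p under 0.01 and a log2 fold change over 1 in size. The test was the quasi-likelihood test of edgeR, with p adjusted after Benjamini and Hochberg over 17779 genes, and beside it a two-sided exact permutation test of single genes, which with 4 against 4 libraries cannot go below p = 0.0286. It was at that value for every called gene of the families in every comparison, except Sult2a1 and Gstt2 in a single comparison each, given below.

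The labels were checked against markers. Dlk1, by which the hepatoblasts were sorted, had means of 3521, 94.1 and 4.18 CPM in hepatoblasts, cultured and mature cells. The other hepatoblast marker, Afp, had 39312.5, 18597 and 42.3 CPM in the same order, so it stayed high in culture. The albumin gene Alb had 37733, 40200 and 95132 CPM. Hepatoblast replicate 1 stood apart, with 2503 CPM summed over 9 erythroid markers (most abundant Hbb-bs) against 497, 407 and 304 in the other replicates, and 311 CPM over 9 macrophage markers (most abundant Marco) against 76.0, 86.3 and 82.2. Diff. hepatocyte replicate 1 had the most CPM of its group over 9 mesenchymal markers (2956, most abundant Col1a1), 7 bile duct markers (232, most abundant Krt19) and the macrophage markers (184). Mesenchymal markers summed to 916 ± 288 CPM in hepatoblasts, 1906 ± 773 in culture and 58.9 ± 10.2 in the adult cells (SD, n = 4 each). Endothelial markers, 8 in number, summed to 76.9 ± 46.5, 30.5 ± 1.71 and 194 ± 51.7 CPM, with Stab2 the most abundant in the uncultured groups and Eng in culture. Bile duct markers summed to 32.0 ± 3.95, 136 ± 64.9 and 53.6 ± 12.2 CPM in the same order. In mature hepatocytes Epb42 was at 0 and Alas2 gave 151 of the 156 CPM of the erythroid list. Their part in the results was not tested, but counts without hepatoblast replicate 1 and without Diff. hepatocyte replicate 1 are given below.

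Of the 67 genes, 56 passed the filter, 18 UGT, 15 SULT and 23 GST genes. The 11 that did not were Gsto2, Gstt4, Sult1c1, Sult2a3, Sult3a1, Sult3a2, Sult6b1, Sult6b2, Ugt1a8, Ugt2a1 and Ugt2a2, with no more than 10 counts in any library. Ugt2a1 and Ugt2a2 share nearly all exon bases with other genes on their strand, and reads that fall on several genes are counted on none. Of the 56, 10 passed through a single group: Sult1e1, Sult2a2, Sult2a4, Sult2a5 and Sult2a6 through Diff. hepatocytes and Sult2a7, Ugt1a10, Ugt2a3, Ugt2b37 and Ugt2b38 through mature hepatocytes. The counts below describe the 56 genes and are no support for a direction.

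The highest group mean was in mature hepatocytes for 40 of the 56 genes, in Diff. hepatocytes for 12 (10 SULT and 2 GST genes) and in hepatoblasts for 4, all GST. Without the 10 genes that passed through a single group, the counts were 35, 7 (5 SULT and 2 GST genes) and 4 of 46, and 4 SULT genes were highest in mature hepatocytes. Over the 17779 tested genes the shares were 35.2%, 27.8% and 37.0%.

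**Figure D1:**
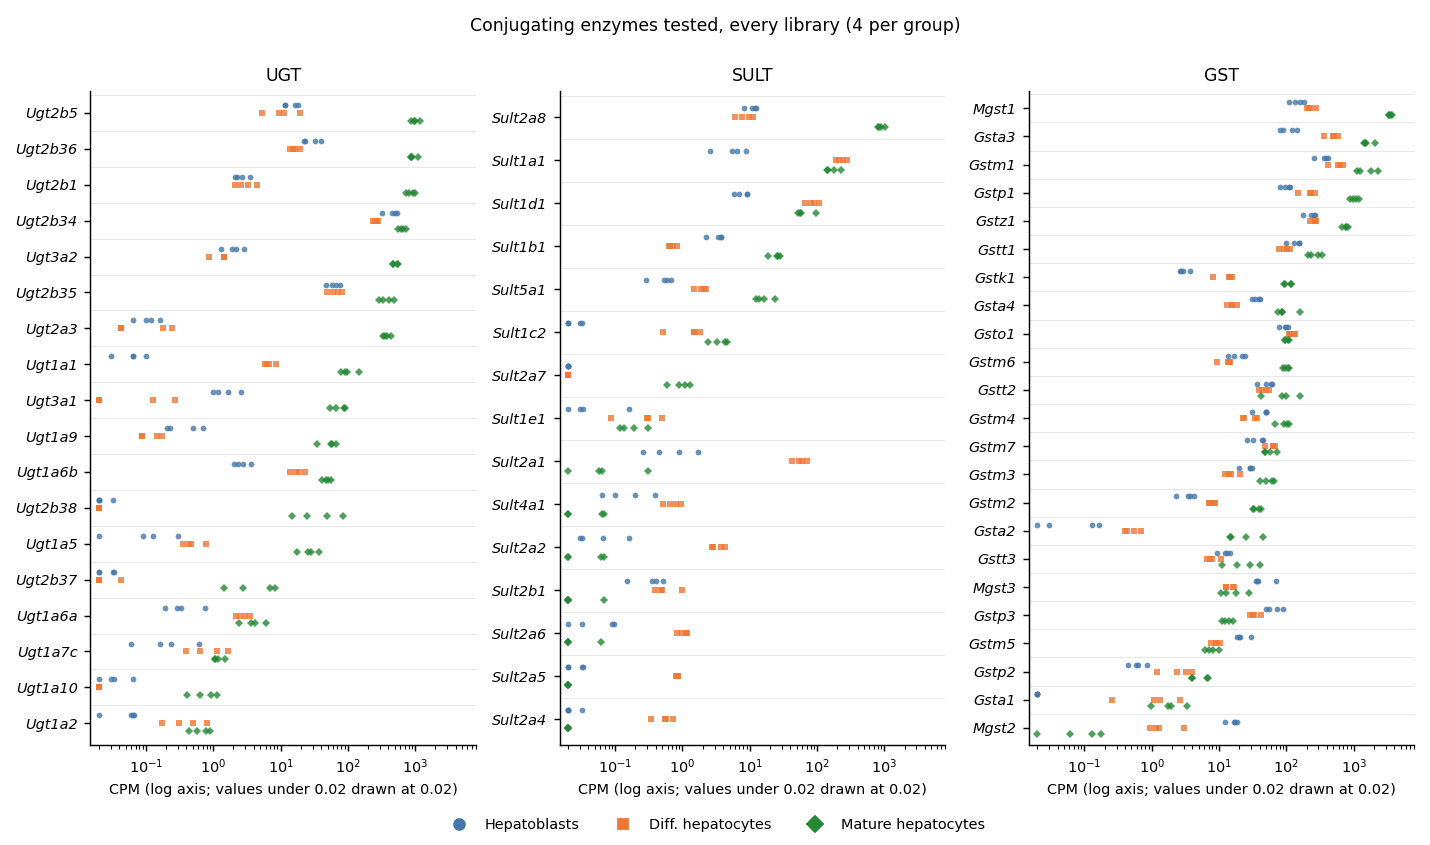
CPM on a log axis of the 56 tested genes in each of the 12 libraries, by family and sorted by the mean of mature hepatocytes. Points are libraries (4 per group). Sult2a1 stands between 42.9 and 69.8 CPM in Diff. hepatocytes and under 2 in the other groups, and Ugt2a3 between 330 and 440 CPM in mature hepatocytes and under 0.25 in the others.

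Diff. hepatocytes were compared with hepatoblasts to describe what 4 days of culture did. Of the 56 genes, 22 rose, 6 fell and 28 were not called, where 14.9% of all tested genes rose and 14.0% fell (28.9% in either direction). The median log2 fold change was 0.50, against -0.01 over all genes. By family, 10 of 15 SULT, 7 of 23 GST and 5 of 18 UGT genes rose, and 1 SULT, 4 GST and 1 UGT gene fell. Without hepatoblast replicate 1 the counts were 22 and 7, and without Diff. hepatocyte replicate 1 they were 20 and 6. Leaving out the 10 genes that passed through a single group, 18 of 46 rose and 6 fell.

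Mature hepatocytes were compared with hepatoblasts to describe embryo and adult. There 39 genes rose, 6 fell and 11 were not called, where 20.1% of all tested genes rose and 24.7% fell (44.8% in either direction). The median log2 fold change was 3.09, against -0.15 over all genes. Of the UGT genes 17 of 18 rose, of the SULT genes 7 of 15, and of the GST genes 15 of 23, while 2 SULT and 4 GST genes fell. The counts were 37 and 6 without hepatoblast replicate 1. Among the 46 genes that passed in more than a single group 34 rose and 6 fell.

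Diff. hepatocytes were compared with mature hepatocytes to describe how far culture came to the adult state. There 9 genes were higher in culture, 35 lower and 12 not called, where 20.2% of all tested genes were higher and 15.6% lower (35.8% in either direction). The median log2 fold change was -1.59, against 0.09 over all genes. Of the UGT genes 15 of 18 were lower and 0 higher, of the SULT genes 5 were lower and 7 higher, and of the GST genes 15 were lower and 2 higher. Without Diff. hepatocyte replicate 1 the counts were 9 and 34. Leaving out the 10 genes that passed through a single group, 5 of 46 were higher and 30 lower. These comparisons share libraries pairwise, so their counts are not independent. Scaling by library totals instead of TMM moved the median of all genes to -0.34, -1.0 and 0.62 (log2) in the comparisons as listed, and reversed the direction of no called gene among the 56. With library totals 18 genes rose and 11 fell in culture against hepatoblasts, 33 rose and 7 fell in mature hepatocytes against hepatoblasts, and 9 were higher and 29 lower in culture than in mature hepatocytes.

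**Figure D2:**
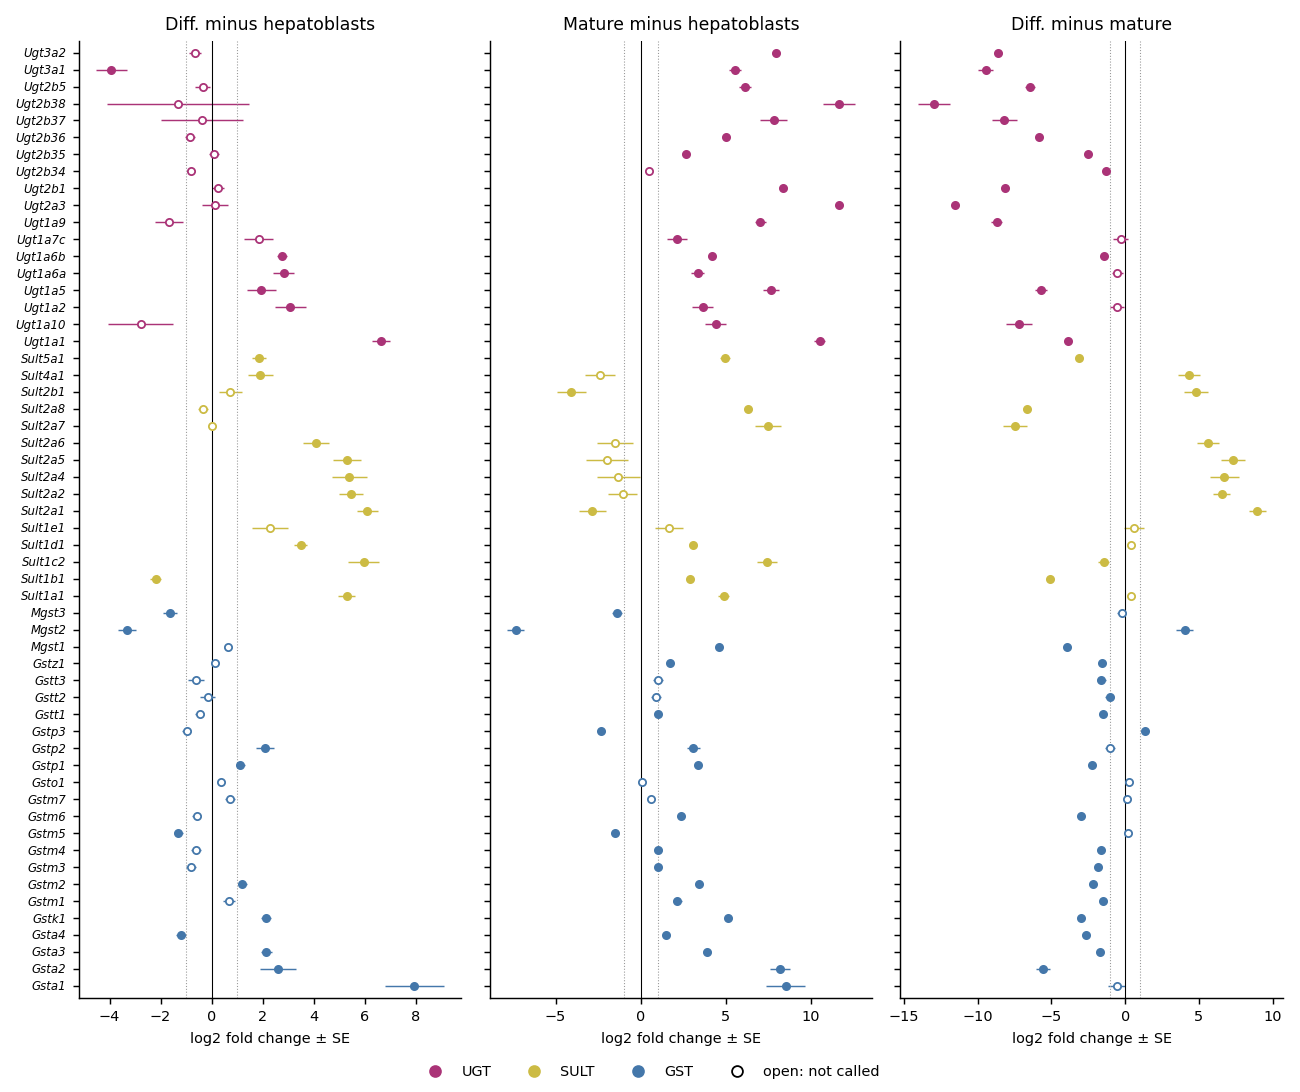
Log2 fold change ± SE from edgeR for the 56 tested genes in the 3 comparisons, with filled points for called genes and dotted lines at 1 and -1. Every Ugt2b point lies left of 0 between Diff. and mature hepatocytes, while Sult2a1, Sult2a2, Sult2a4, Sult2a5 and Sult2a6 lie right of 4. Points of genes with 0 counts in a group depend on the fit's prior.

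Summed over its genes, the UGT level was 152 ± 32.6 CPM per kb in hepatoblasts, 126 ± 18.7 in culture and 2252 ± 207 in the adult cells (SD, n = 4 each). The adult sum was 1431 CPM per kb over the UGT genes that share up to 20% of their sequences. The UGT sum of the cultured cells lay within the range of hepatoblasts' 110 to 187 CPM per kb in 3 of 4 libraries. The SULT level was 13.0 ± 3.11, 255 ± 29.5 and 425 ± 59.1 CPM per kb in the same order, with no overlap between groups. The GST level was 853 ± 133, 1112 ± 143 and 4717 ± 565 CPM per kb, and the ranges of hepatoblasts and cultured cells overlapped.

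**Figure D3:**
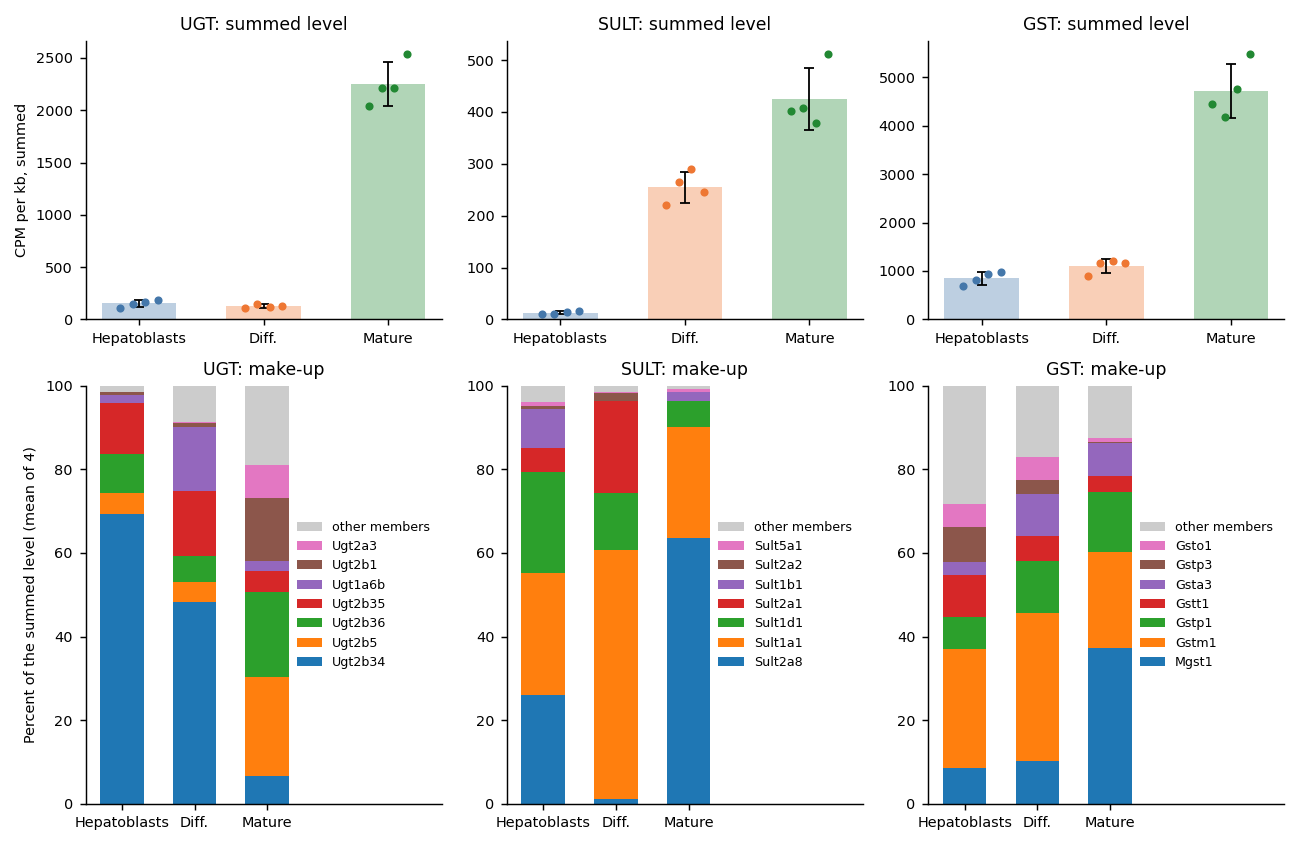
Top, the summed level of each family in CPM per kb, with bars for the mean, whiskers for the SD and points for the 4 libraries. Bottom, the mean share of each gene in the family's level, in percent. The leading genes change from Ugt2b34 to Ugt2b5 and Ugt2b36 and from Gstm1 to Mgst1 between the left and right bars.

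The make-up of the families differed between the groups. Ugt2b34 made up 69.2% ± 2.71 of the UGT level in hepatoblasts, 48.3% ± 3.84 in culture and 6.60% ± 0.271 in the adult cells (SD, n = 4 each). In mature hepatocytes Ugt2b5 (23.8%), Ugt2b36 (20.3%) and Ugt2b1 (15.2%) led. Sult2a8 took 26.0% ± 4.70 of the SULT level in hepatoblasts, 1.03% ± 0.270 in culture and 63.6% ± 3.47 in the adult cells, while Sult1a1 took 59.7% ± 5.50 in Diff. hepatocytes. Among GST genes Gstm1 led in hepatoblasts (28.5%) and Diff. hepatocytes (35.3%), and Mgst1 led in mature hepatocytes with 37.3% ± 4.02.

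Ugt2b and Ugt2a enzymes conjugate steroids, bile acids and many drugs. The tested genes, of which Ugt2a3 is the Ugt2a gene, were higher in mature hepatocytes than in hepatoblasts except Ugt2b34, and not called between culture and hepatoblasts. Among them Ugt2a3, Ugt2b37 and Ugt2b38 passed the filter through mature hepatocytes alone, which favoured that direction. Of all tested genes 20.1% rose in mature hepatocytes, and 28.9% were called in either direction in culture against hepatoblasts. With library totals Ugt2b34 and Ugt2b36 were called lower in culture than in hepatoblasts (log2 -1.12 and -1.16). Ugt2b1 was at 2.26, 2.09, 2.69 and 3.51 CPM in hepatoblasts. It was at 2.07, 4.47, 2.62 and 3.25 CPM in Diff. hepatocytes and at 811, 988, 942 and 741 CPM in mature hepatocytes. The first groups overlapped and all mature libraries lay far above them. The fold change was 330 between mature hepatocytes and hepatoblasts (log2 8.37 ± 0.26 SE, edgeR adjusted p = 1.3e-11), and 0.24 ± 0.23 on the log2 scale between culture and hepatoblasts (adjusted p = 0.384).

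Ugt2a3 passed the filter through mature hepatocytes alone. Its levels were 0.161, 0.119, 0.0647 and 0.0994 CPM in hepatoblasts, which is 14 counts in all. They were 0.0432, 0.043, 0.178 and 0.246 CPM in Diff. hepatocytes, or 11 counts, and 382, 351, 330 and 440 CPM in mature hepatocytes. The log2 difference of mature hepatocytes from hepatoblasts was 11.65 ± 0.25, given as a description since the filter favoured it.

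Ugt2b38, which passed through mature hepatocytes alone, had 1 count in hepatoblasts and 0 in Diff. hepatocytes. In mature hepatocytes it had 24.5, 84.2, 49.3 and 14.6 CPM. The ratio of mature hepatocytes to hepatoblasts was 5448 with a counting interval of 977 to 215252 (95%), and mature hepatocytes were at least 320-fold higher than Diff. hepatocytes, with 3 counts in each library set for 0. The edgeR log2 fold change over hepatoblasts was 11.66, and 12.92 without hepatoblast replicate 1. These values are a description since the filter favoured them. Its neighbour Ugt2b37 behaved alike at a lower level, with 2.74, 8.27, 6.88 and 1.43 CPM in mature hepatocytes. For Ugt2b38, 28.0% of the 75-base sequences are shared with other genes, so its level is uncertain.

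Ugt2b5 and Ugt2b36, the leading UGT genes of the adult cells per kb, did have transcripts in hepatoblasts. Ugt2b36 was at 22.7, 23.2, 32.1 and 40.1 CPM in hepatoblasts, 15.4, 19.7, 16.3 and 13.8 in culture and 855, 882, 908 and 1121 in the adult cells. It rose 31.9-fold from hepatoblasts to mature hepatocytes and was 57.6-fold lower in culture than in the adult cells. Ugt2b5 was at 11.6 to 18.1 CPM in hepatoblasts, 5.31 to 19.7 in culture and 868 to 1166 in mature hepatocytes, a rise of 6.11 ± 0.35 on the log2 scale from hepatoblasts to the adult cells (edgeR adjusted p = 3.62e-09), and shares 30.4% of its sequences with other genes. Per kb, Ugt2b5 stood at 538 ± 66.5 and Ugt2b36 at 457 ± 59.2 CPM in mature hepatocytes, and their libraries overlapped in range.

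Ugt2b34 lies 9.7 kb from Ugt2b1 and had another pattern. Its levels were 318, 458, 499 and 544 CPM in hepatoblasts, 235, 275, 253 and 276 in culture and 558, 661, 613 and 738 in the adult cells. The groups did not overlap, but the difference of mature hepatocytes from hepatoblasts was 0.50 ± 0.15 on the log2 scale, under the threshold, and turned to -0.34 with library totals. It was lower in culture than in mature hepatocytes by a log2 difference of -1.31 ± 0.15 (edgeR adjusted p = 5.47e-06), but by -0.78 and under the threshold with library totals. Ugt2b35, further along the cluster, was at 47.3, 57.6, 66.1 and 75.5 CPM in hepatoblasts, 49.1, 82.7, 60.8 and 72.6 in culture and 294, 338, 412 and 491 in mature hepatocytes. It rose 6.23-fold from hepatoblasts to the adult cells (edgeR adjusted p = 6.92e-08) and overlapped between hepatoblasts and culture.

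The Ugt3a enzymes use UDP sugars other than UDP-glucuronic acid. Ugt3a1 (chr15:9276888-9315032) fell in culture, from 1.19, 0.985, 1.68 and 2.62 CPM in hepatoblasts to 0, 0.129, 0.266 and 0 in Diff. hepatocytes. In mature hepatocytes it was at 89.5, 54.1, 66.9 and 88.4 CPM. It was the UGT gene that fell between hepatoblasts and culture (log2 -3.93 ± 0.60, edgeR adjusted p = 8.69e-05, and log2 -5.00 without Diff. hepatocyte replicate 3), and it was 46.2-fold higher in mature hepatocytes than in hepatoblasts. Ugt3a2, its neighbour, had means of 2.07, 1.31 and 509 CPM and was not called between culture and hepatoblasts.

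Ugt1a genes were the UGT genes that rose in culture. Of the 8 tested, 5 rose from hepatoblasts to Diff. hepatocytes, where 14.9% of all tested genes rose. From hepatoblasts to mature hepatocytes 8 rose, where 20.1% of all tested genes rose. Of these, Ugt1a10 passed the filter through mature hepatocytes alone, which favoured that direction. Ugt1a7c was not called there with library totals (log2 1.28, edgeR adjusted p = 0.0621) or without hepatoblast replicate 2, 3 or 4 or mature hepatocyte replicate 2. Reads on the shared exons of the Ugt1a genes were not counted, so each value rests on the first exon, about 900 bases for most, and all Ugt1a values are uncertain as levels. Ugt1a1, the enzyme that conjugates bilirubin, had 0.0645, 0.0298, 0.0647 and 0.0994 CPM in hepatoblasts, or 8 counts. It had 5.79, 8.65, 6.30 and 6.85 CPM in Diff. hepatocytes and 91.7, 95.6, 78.8 and 144 CPM in mature hepatocytes. The rise in culture was 99.9-fold (log2 6.64 ± 0.34, edgeR adjusted p = 4.87e-09), and the level reached was 14.9-fold under that of mature hepatocytes. Of the 913 bases that Ugt1a1 shares with no gene on its strand, 385 are also free of exons on the other strand, which makes its level more uncertain.

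Ugt1a6b, a phenol-conjugating enzyme, was nearer to the adult level in culture. It was at 2.03, 2.33, 2.75 and 3.68 CPM in hepatoblasts, 13.9, 23.2, 17.3 and 18.9 in culture and 46.7, 41.2, 50.9 and 56.7 in the adult cells. It rose 6.79-fold in culture (edgeR adjusted p = 8.75e-08) and was 2.67-fold lower there than in mature hepatocytes, but with library totals the latter was -0.88 on the log2 scale and not called. Its pair Ugt1a6a had means of 0.394, 2.80 and 4.06 CPM, and culture and mature hepatocytes did not differ past the threshold (log2 -0.53 ± 0.35, adjusted p = 0.196). Ugt1a2, at under 1 CPM, and Ugt1a5 also rose in culture, Ugt1a5 with an edgeR adjusted p of 0.00999 just under the threshold, and 0.0157 with library totals. Its call was also lost without hepatoblast replicate 1, 2 or 3, any Diff. hepatocyte library or mature hepatocyte replicate 1, 3 or 4.

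Not every first exon of the locus moved so. Ugt1a9 had 0.226, 0.209, 0.712 and 0.497 CPM in hepatoblasts, 0.173, 0.086, 0.0888 and 0.148 in culture and 35.1, 55.5, 67.5 and 58.8 in the adult cells. Its difference between culture and hepatoblasts was -1.68 ± 0.56 on the log2 scale and missed the threshold (edgeR adjusted p = 0.0188), although the groups did not overlap. It was called lower with library totals (log2 -1.99, adjusted p = 0.00436 from edgeR) and with DESeq2 (log2 -1.73, adjusted p = 0.00394). With the replicate number as a block it was also called lower (log2 -1.65, edgeR adjusted p = 0.00633). Ugt1a10 was at 0 in Diff. hepatocytes and at 0.784 ± 0.326 CPM in mature hepatocytes.

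**Figure D4:**
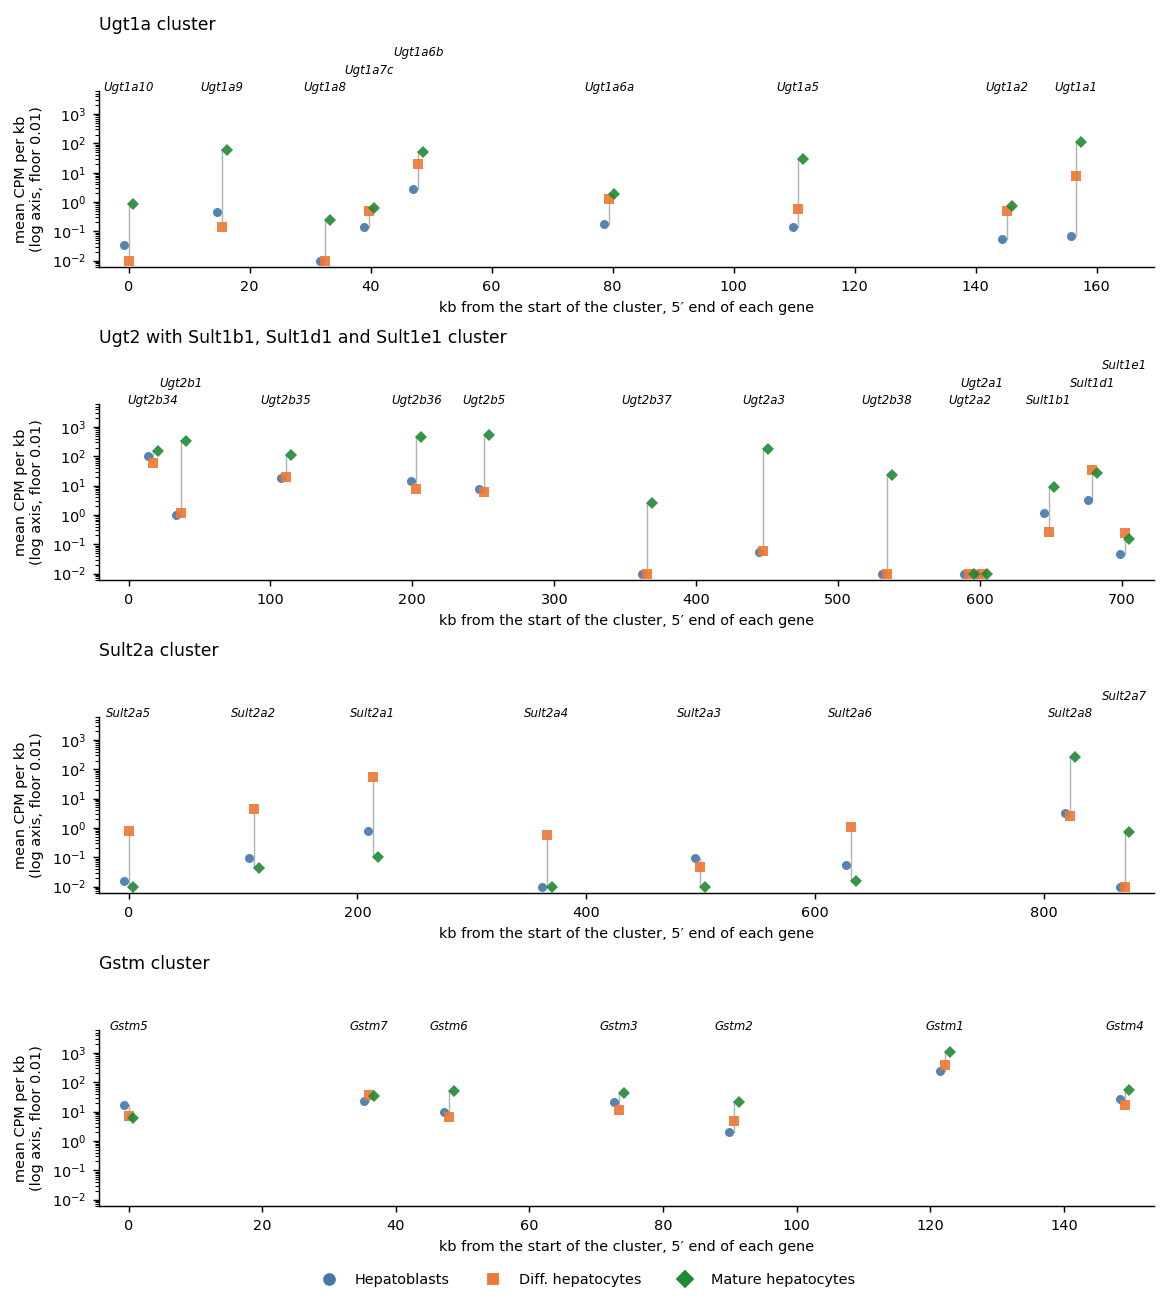
Mean level (CPM per kb, log axis, values under 0.01 drawn at 0.01) of the genes of 4 clusters by the distance of their 5′ ends from the cluster's start, in kb. Points are group means over 4 libraries and grey lines join the groups of a gene. In the Sult2a cluster the highest point is Diff. hepatocytes for Sult2a1, Sult2a2, Sult2a4, Sult2a5 and Sult2a6 and mature hepatocytes for Sult2a8 and Sult2a7.

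Of the 15 tested SULT genes 10 rose in culture, where 14.9% of all tested genes rose, and 4 of the 10 (Sult2a2, Sult2a4, Sult2a5 and Sult2a6) passed the filter through Diff. hepatocytes alone. Sult1a1, which sulfates phenols and drugs (chr7:126672865-126676432), was at 6.45, 2.54, 5.53 and 8.88 CPM in hepatoblasts. It was at 193, 210, 275 and 239 CPM in Diff. hepatocytes and at 176, 140, 143 and 224 CPM in mature hepatocytes. The cultured and adult libraries overlapped, and both lay above all hepatoblast libraries. It rose 39.3-fold in culture (log2 5.30 ± 0.32, edgeR adjusted p = 2.04e-08) and 29.3-fold in mature hepatocytes, and the difference of culture from mature hepatocytes was 0.42 ± 0.26 (log2, adjusted p = 0.174).

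Sult1d1, which sulfates catecholamines, followed the same order. Its CPM were 5.87, 6.80, 8.96 and 9.21 in hepatoblasts, 66.1, 108, 91.0 and 81.0 in culture and 57.0, 55.6, 51.5 and 97.6 in the adult cells. The rise was 11.2-fold in culture and 8.49-fold in mature hepatocytes, with edgeR adjusted p of 5.62e-08 and 5.87e-08. On the log2 scale culture and mature hepatocytes differed by 0.40 ± 0.21 (adjusted p = 0.113).

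Sult1b1, a sulfotransferase of thyroid hormones beside Sult1d1 on chromosome 5, moved the other way in culture. It fell from 2.22, 3.73, 3.75 and 3.41 CPM in hepatoblasts to 0.735, 0.645, 0.843 and 0.641 CPM in Diff. hepatocytes, 4.55-fold (edgeR adjusted p = 1.51e-06). In mature hepatocytes it was at 26.2, 27.8, 18.7 and 25.5 CPM, and culture lay under it by a log2 difference of -5.09 ± 0.22 (edgeR adjusted p = 5.27e-10). Sult1c2 had 2 counts in hepatoblasts and means of 1.33 and 3.64 CPM in cultured and mature cells. The estrogen sulfotransferase Sult1e1 stayed under 0.5 CPM in every library and was not called in any comparison with all libraries. Without hepatoblast replicate 1 it was called higher in culture (log2 3.49, edgeR adjusted p = 0.00165) and in mature hepatocytes (log2 2.86, adjusted p = 0.00913), and without Diff. hepatocyte replicate 2 higher in culture (log2 2.58).

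Enzymes of the Sult2a cluster sulfate steroids and bile acids. Of its 7 tested genes, Sult2a1 and Sult2a8 passed the filter through more than a single group. Sult2a1 (chr7:13796246-13837409) was at 0.258, 0.448, 0.874 and 1.72 CPM in hepatoblasts. In Diff. hepatocytes it was at 54.6, 69.8, 59.4 and 42.9 CPM, and in mature hepatocytes at 0, 0.0641, 0.0583 and 0.31 CPM, or 7 counts. Culture lay 68.9-fold above hepatoblasts (log2 6.11 ± 0.42, edgeR adjusted p = 5.92e-08) and 491-fold above mature hepatocytes (log2 8.94 ± 0.58, adjusted p = 2.17e-08). The sizes rest in part on single libraries, with a log2 fold change of 6.74 over hepatoblasts without hepatoblast replicate 4 and of 10.22 over mature hepatocytes without mature hepatocyte replicate 4. Mature hepatocytes and hepatoblasts overlapped in range, and that difference (log2 -2.83 ± 0.81) passed edgeR's test at an adjusted p of 0.00642, while its exact permutation p was 0.0571. That call was lost without hepatoblast replicate 3 or 4 or mature hepatocyte replicate 1, 2 or 3 (edgeR adjusted p from 0.0116 to 0.0220), and its size was -2.20 without hepatoblast replicate 4 and -4.12 without mature hepatocyte replicate 4 (log2). The call was lost as well with the replicate number as a block (edgeR adjusted p = 0.0114).

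Sult2a2, Sult2a4, Sult2a5 and Sult2a6 passed the filter through Diff. hepatocytes alone, so that their being highest there was favoured by the filter and their values are a description. Sult2a2 was at 3.72, 4.35, 2.89 and 2.71 CPM in culture, 44.3-fold above the 9 counts of hepatoblasts (log2 5.47, and 6.15 without hepatoblast replicate 3), but shares 47.2% of its sequences with other genes. Sult2a5 was at 0.864, 0.860, 0.843 and 0.788 CPM in culture, with 2 counts in hepatoblasts and 0 in mature hepatocytes, which makes culture at least 4.42-fold above the adult cells, and shares 25.6% of its sequences with other genes, so its level is uncertain. Sult2a6 was at 0.994, 1.16, 1.11 and 0.838 CPM in culture with 7 counts in hepatoblasts and 1 in mature hepatocytes, and Sult2a4 at 0.554 ± 0.160 with 1 and 0 counts. Reads of Sult2a1 that fit several copies are counted nowhere, which touches 19.5% of its sequences.

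Sult2a8, a bile acid sulfotransferase, begins 155.8 kb beyond Sult2a6 in the same cluster and had the opposite order. Its levels were 8.19, 10.9, 12.0 and 12.5 CPM in hepatoblasts, 6.09, 9.68, 7.59 and 11.1 in culture and 808, 896, 824 and 1009 in the adult cells. Hepatoblasts and culture overlapped, and mature hepatocytes were 81.0-fold above hepatoblasts (log2 6.34 ± 0.21, edgeR adjusted p = 2.65e-11) and 103-fold above culture. Sult2a7, at the end of the cluster, passed through mature hepatocytes alone and had 0 counts in all hepatoblast and Diff. libraries and 0.891, 1.09, 0.583 and 1.30 CPM in mature hepatocytes, at least 10.1-fold above hepatoblasts.

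The remaining sulfotransferases were low. Sult5a1 was at 0.29, 0.686, 0.583 and 0.53 CPM in hepatoblasts, 1.47, 2.11, 2.22 and 1.87 in culture and 16.2, 24.1, 13.6 and 12.3 in mature hepatocytes. It rose 3.63-fold in culture and 31.3-fold in mature hepatocytes (edgeR adjusted p = 9.69e-05 and 4.65e-09), with no overlap between groups. The call in culture was lost with DESeq2 and the threshold in the test (adjusted p = 0.0376). Sult2b1, which sulfates cholesterol, and Sult4a1, known from brain, stayed under 1 CPM and had 1 and 2 counts in mature hepatocytes. Sult4a1 rose in culture (log2 1.91 ± 0.49, edgeR adjusted p = 0.00456) and Sult2b1 was not called there, but Sult2b1 was lower in mature hepatocytes than in both other groups. Its log2 difference of mature hepatocytes from hepatoblasts was -4.08, and -6.11 without mature hepatocyte replicate 1. That of culture from mature hepatocytes was 4.81, and 6.83 without the same library. With DESeq2 and the threshold in the test the call of Sult2b1 against hepatoblasts was lost (adjusted p = 0.0175). The call of Sult4a1 was lost with library totals (log2 1.59, edgeR adjusted p = 0.0128) and without hepatoblast or Diff. hepatocyte replicate 3 or 4, and its log2 value was 2.54 without hepatoblast replicate 2.

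Mgst1, a membrane-bound glutathione S-transferase, was the GST gene with the highest level per kb in mature hepatocytes. It was at 109, 134, 161 and 184 CPM in hepatoblasts, 201, 273, 224 and 215 in culture and 3705, 3342, 3408 and 3593 in the adult cells. Culture lay above all hepatoblast libraries by a log2 difference of 0.64 ± 0.15, under the threshold. Mature hepatocytes were 23.9-fold above hepatoblasts and 15.4-fold above culture (edgeR adjusted p = 8.71e-11 and 5.36e-10). Its level in mature hepatocytes was 1745 ± 82.8 CPM per kb, and Gstm1 followed with 1097 ± 372 CPM per kb (SD, n = 4 each).

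The other membrane-bound enzymes, Mgst2 and Mgst3, which act on leukotrienes and lipid peroxides, moved downwards. Mgst2 was at 12.5, 16.7, 17.0 and 18.7 CPM in hepatoblasts, 3.07, 1.16, 1.29 and 0.936 in culture and 0, 0.128, 0.175 and 0.0621 in the adult cells. It fell in culture (log2 -3.32 ± 0.35, edgeR adjusted p = 2.71e-06) and in mature hepatocytes (log2 -7.35 ± 0.51, adjusted p = 2.27e-08), and was higher in culture than in mature hepatocytes. The high cultured value belongs to replicate 1, the library with the most macrophage and mesenchymal markers of its group, whose part was not tested.

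Mgst3 was at 70.5, 35.5, 37.8 and 36.2 CPM in hepatoblasts, 16.6, 12.9, 16.2 and 12.6 in culture and 18.1, 10.8, 12.8 and 27.6 in the adult cells. It fell in culture (log2 -1.63 ± 0.29, edgeR adjusted p = 0.000286) and in mature hepatocytes (log2 -1.38 ± 0.29, adjusted p = 0.000707). The highest value was hepatoblast replicate 1, in which erythroid markers also summed to 2503 CPM. The other hepatoblast libraries lay above all libraries of the other groups, and Mgst3 was called in both comparisons without hepatoblast replicate 1. In these other hepatoblast libraries the erythroid markers summed to 497, 407 and 304 CPM, against means of 12.3 in culture and 156 in the adult cells. Their part in the values of Mgst3 was not tested. Both calls were lost where the fold threshold was part of the test (edgeR's glmTreat, adjusted p = 0.0286 and 0.0801).

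Gsta3, an alpha class enzyme (chr1:21240589-21265661), was at 81.4, 88.7, 122 and 146 CPM in hepatoblasts, 359, 580, 497 and 514 in culture and 1493, 1427, 1503 and 2053 in the adult cells. The groups did not overlap, with a rise of 4.45-fold in culture (log2 2.15 ± 0.21, edgeR adjusted p = 1.41e-06) and 14.8-fold in mature hepatocytes. Gstk1, found in mitochondria and peroxisomes, was at 2.87, 2.66, 3.66 and 2.72 CPM in hepatoblasts, 8.17, 14.2, 15.6 and 14.8 in culture and 117, 96.9, 90.8 and 117 in mature hepatocytes. Its groups did not overlap either, and it rose 4.43-fold in culture and 35.4-fold in mature hepatocytes (edgeR adjusted p = 7.15e-07 and 1.52e-10).

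Gsta2 had 10 counts in hepatoblasts, 46 in culture and 1581 in mature hepatocytes, a rise of 8.20 ± 0.57 on the log2 scale over hepatoblasts (edgeR adjusted p = 2.25e-08), and shares 36.6% of its sequences with other genes. Gsta1 had 0 counts in hepatoblasts and means of 1.33 and 1.98 CPM in cultured and mature cells, with 84.7% of its sequences shared. Gsta4, which acts on 4-hydroxyalkenals from lipid peroxides, was the alpha class gene that fell in culture, from 36.0 ± 4.27 to 15.7 ± 2.23 CPM (log2 -1.20 ± 0.21, edgeR adjusted p = 0.000229), a call that was lost with glmTreat (adjusted p = 0.224). It was at 102 ± 37.5 CPM in mature hepatocytes (SD, n = 4 each).

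The pi class genes lie within 24.2 kb on chromosome 19, and Gstp3 had the opposite order to Gstp1 and Gstp2. Gstp1 was at 79.7, 97.0, 115 and 110 CPM in hepatoblasts, 149, 265, 227 and 233 in culture and 888, 1096, 1204 and 991 in the adult cells. It rose 2.18-fold in culture and 10.4-fold in mature hepatocytes (edgeR adjusted p = 9.01e-05 and 2.55e-09), and shares 29.2% of its sequences with other genes. With library totals its rise in culture was 0.81 on the log2 scale and not called. Gstp2, with 50.1% of its sequences shared, had means of 0.624, 2.68 and 5.39 CPM and rose in both comparisons with hepatoblasts. Gstp3, 19.5 kb from Gstp1 and with no shared sequence, was at 54.6, 50.5, 72.6 and 87.9 CPM in hepatoblasts, 28.4, 32.6, 32.2 and 41.6 in culture and 11.2, 14.0, 16.4 and 12.1 in mature hepatocytes. It fell in mature hepatocytes by 2.31 ± 0.19 on the log2 scale (adjusted p = 1.32e-07), while the difference in culture, -0.98 ± 0.18, was just under the threshold in size and passed it with library totals (-1.29).

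Mu class genes differed among themselves. Gstm1 was at 257, 369, 393 and 421 CPM in hepatoblasts, 423, 589, 688 and 629 in culture and 1248, 1115, 1788 and 2313 in the adult cells. It rose 4.49-fold in mature hepatocytes (edgeR adjusted p = 2.64e-06), and its 1.62-fold difference in culture was not called. Gstm2 was at 2.32, 3.70, 4.24 and 3.48 CPM in hepatoblasts, 8.64, 7.44, 8.43 and 7.14 in culture and 39.6, 41.8, 32.0 and 33.0 in mature hepatocytes. It rose 2.30-fold in culture (edgeR adjusted p = 3.53e-05), but that fold change is 0.89 on the log2 scale with library totals and then not called. Gstm5 was at 29.5, 20.7, 18.7 and 19.5 CPM in hepatoblasts, 9.12, 7.53, 8.88 and 10.4 in culture and 7.06, 6.22, 10.1 and 8.25 in mature hepatocytes, falling by 1.30 ± 0.18 and 1.48 ± 0.18 on the log2 scale. Gstm3, Gstm4 and Gstm6 rose in mature hepatocytes, Gstm3 (uncertain, with 21.6% of its sequences shared) and Gstm4 with log2 fold changes of 1.01 and 1.04 close to the threshold, and Gstm7 was not called in any comparison. With library totals these were 0.17 and 0.19 and not called, and without hepatoblast replicate 1 or mature hepatocyte replicate 3 or 4 they were from 0.89 to 0.97 and not called.

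No theta, zeta or omega class gene that was tested passed the threshold between culture and hepatoblasts. Gstt1 was at 97.9, 131, 153 and 156 CPM in hepatoblasts, 114, 78.3, 102 and 92.5 in culture and 295, 207, 236 and 342 in mature hepatocytes, with a log2 difference of 1.01 ± 0.18 between mature hepatocytes and hepatoblasts at the edge of the threshold. That call was lost with DESeq2 (log2 0.997), with library totals (log2 0.15) and without hepatoblast replicate 1 or 2, Diff. hepatocyte replicate 2 or mature hepatocyte replicate 1 or 4 (log2 from 0.862 to 0.997). With the replicate number as a block it was lost too (log2 0.991). Gstt2 was at 98.8, 87.2, 42.2 and 160 CPM in mature hepatocytes, which overlapped with both other groups. It was called lower in culture than in mature hepatocytes (log2 -1.05 ± 0.30, edgeR adjusted p = 0.00758), with an exact permutation p of 0.114. That call was lost with library totals (log2 -0.50) and without hepatoblast replicate 2, any Diff. hepatocyte library or mature hepatocyte replicate 1, 2 or 4 (log2 -0.70 without the last, edgeR adjusted p = 0.0293). The call was also lost with the replicate number as a block (log2 -0.98). Gstz1, an isomerase of tyrosine breakdown, was at 235 ± 43.2, 260 ± 23.2 and 761 ± 74.0 CPM (SD, n = 4 each). Gsto1 was at 94.5 ± 12.3, 121 ± 11.2 and 101 ± 7.39 CPM and not called in any comparison.

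Genes of the pathway were described from lists. Beside the counts of all lists below, 28.9% of all tested genes were called in either direction in culture against hepatoblasts, 44.8% in mature hepatocytes against hepatoblasts and 35.8% between culture and mature hepatocytes, with median log2 fold changes of -0.01, -0.15 and 0.09. The list for UDP-glucuronate supply held 6 genes, Ugp2, Ugdh, Slc35d1, Pgm1, Pgm2 and the glycogen synthase Gys2, which uses UDP-glucose and does not supply UDP-glucuronate. Of these, 5 rose in culture and 3 in mature hepatocytes, with median log2 fold changes of 1.22 and 1.40. Ugdh, which makes UDP-glucuronic acid, was at 27.5 ± 4.44 CPM in hepatoblasts, 84.2 ± 10.4 in culture and 260 ± 48.8 in the adult cells (SD, n = 4 each), and the transporter Slc35d1 at 69.2, 214 and 305 CPM. Between culture and mature hepatocytes 1 gene of the list (Pgm2) was higher in culture and 2 (Ugdh and Gys2) lower.

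Of 8 genes of PAPS supply, 1 rose and 1 fell in culture and 3 rose in mature hepatocytes, with medians of 0.19 and 0.59, and 2 were lower in culture than in mature hepatocytes. The synthase Papss2 was at 31.1 ± 5.82, 121 ± 19.0 and 217 ± 58.8 CPM in hepatoblasts, Diff. and mature hepatocytes (SD, n = 4 each). The other synthase, Papss1, was at 33.8, 19.2 and 21.3 CPM and was not called. Sulfite oxidase Suox fell in culture from 51.8 to 24.5 CPM and stood at 183 CPM in mature hepatocytes.

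Of 11 genes of glutathione synthesis and recycling, 6 rose in culture and 0 fell, 6 rose and 2 fell in mature hepatocytes, and 2 were higher and 6 lower in culture than in mature hepatocytes, with median log2 fold changes of 1.25, 1.79 and -1.45. Ggt1, which splits extracellular glutathione, was at 14.8, 23.9, 26.2 and 24.7 CPM in hepatoblasts, 265, 293, 301 and 288 in culture and 0.48, 0.321, 0.292 and 0.124 in the adult cells. The cystine carrier Slc7a11 had the same order, with means of 0.816, 33.9 and 0.0633 CPM. Gclc, the catalytic subunit of glutamate-cysteine ligase, rose from 37.8 ± 10.5 to 175 ± 15.3 CPM in culture and to 518 ± 186 in mature hepatocytes (SD, n = 4 each). Its modifier subunit Gclm was at 108, 106 and 303 CPM.

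**Figure D5:**
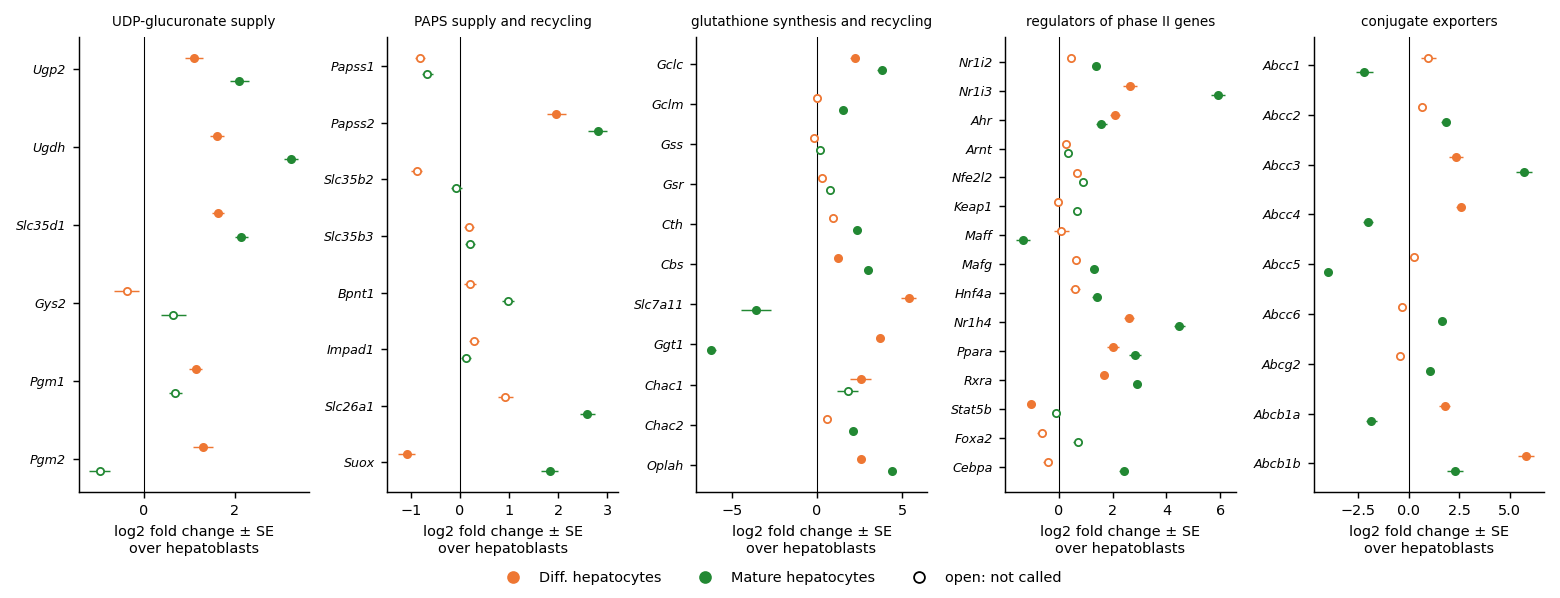
Log2 fold change ± SE over hepatoblasts, from edgeR, for genes of the lists of cofactor supply, regulators and exporters in Diff. and mature hepatocytes. Filled points are called genes. Ggt1, Slc7a11, Abcc4 and Abcb1a lie right of 0 in culture and left of 0 in mature hepatocytes.

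Of 15 regulators of phase II genes, 5 rose and 1 fell in culture, 9 rose and 1 fell in mature hepatocytes, and 1 was higher and 5 lower in culture than in mature hepatocytes, with median log2 fold changes of 0.60, 1.36 and -0.81. The xenobiotic receptor CAR, encoded by Nr1i3, was at 0.824 ± 0.182 CPM in hepatoblasts, 5.17 ± 1.09 in culture and 50.2 ± 13.9 in the adult cells (SD, n = 4 each). The related receptor PXR, Nr1i2, was at 47.1, 64.5 and 121 CPM, and the aryl hydrocarbon receptor Ahr at 17.1, 73.3 and 51.2 CPM, rising in both comparisons with hepatoblasts. Cebpa, a factor of adult hepatocytes, was at 150 ± 34.1, 113 ± 6.99 and 797 ± 175 CPM (SD, n = 4 each).

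Of 12 tested targets of the aryl hydrocarbon receptor and NRF2 outside the families, 7 rose and 1 fell in culture, 7 rose and 3 fell in mature hepatocytes, and 4 were higher and 4 lower in culture than in mature hepatocytes, with medians of 1.62, 1.61 and 0.11. Cyp1a2 was at 0.561, 0.911 and 1018 CPM in hepatoblasts, Diff. and mature hepatocytes, and the sulfiredoxin gene Srxn1 at 9.52, 65.1 and 56.5 CPM. The list shares Slc7a11, Gclc and Gclm with the glutathione list.

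Of 11 tested conjugating enzymes outside the families, 6 rose and 1 fell in culture, 9 rose and 1 fell in mature hepatocytes, and 9 were lower and 0 higher in culture than in mature hepatocytes, with an edgeR median log2 of -2.68. The amine methyltransferase Inmt was at 0.803, 0.429 and 805 CPM, and the glycine acyltransferase Glyat at 0.943, 12.7 and 335 CPM, in hepatoblasts, Diff. and mature hepatocytes. Baat, which conjugates bile acids with amino acids, was at 2.29 ± 0.785, 81.2 ± 15.0 and 326 ± 25.9 CPM (SD, n = 4 each). Gstcd, which carries a GST domain, fell in both comparisons with hepatoblasts.

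The list of 9 exporters held Abcc1 to Abcc6, Abcg2, Abcb1a and Abcb1b. It is wider than conjugates, since Abcb1a and Abcb1b mainly export unconjugated drugs. Of the 9, 4 rose in culture and 0 fell, and 5 rose and 4 fell in mature hepatocytes. In culture 5 were higher and 4 lower than in mature hepatocytes, and the median log2 fold changes were 0.98, 1.06 and 3.18 in the comparisons as listed. Abcc3, a basolateral exporter of glucuronides, was at 24.0, 7.49, 8.09 and 9.07 CPM in hepatoblasts, 72.5, 55.7, 67.7 and 49.6 in culture and 629, 454, 549 and 901 in the adult cells. Abcc2, the canalicular exporter, was at 267 ± 60.2, 423 ± 66.3 and 953 ± 250 CPM (SD, n = 4 each). Abcc4 had the opposite order between culture and adult, with 77.0 ± 24.1 CPM in Diff. hepatocytes and 3.24 ± 0.881 in mature hepatocytes, and Abcb1b was at 0.415, 23.5 and 2.06 CPM. Of 4 genes that hydrolyse conjugates, 2 (Arsa and Arsg) rose in culture and in mature hepatocytes, 1 (Arsb) was lower in culture than in mature hepatocytes, and the glucuronidase Gusb was at 74.9, 46.3 and 39.6 CPM.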

How the data were processed

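The authors sequenced poly(A) RNA as 75-base single reads, mapped and counted them with STAR 2.5.2b on GRCm38 (FastQC 0.11.2 and Picard 2.10.2 are also named in the submitters' processing notes), and tested them with DESeq2 1.22.2. The authors deposited unnormalized counts, a whole number of reads for each gene and library. The strand setting of the counting is not given in the sources used here; 624 genes have at least 90% of their exon bases under exons of the other strand, and 4 of these had over 100 counts over the 12 libraries, so values of Gstm5, Gstz1, Sult1a1, Sult2b1, Ugt1a1 and Ugt1a10, which overlap exons of the other strand, are uncertain.

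Symbols, positions and exons came from GENCODE M21, which holds 53620 of the 53715 identifiers. Counts were fitted in R 4.3.3 with edgeR 4.0.16 and limma 3.58.1 (TMM, quasi-likelihood test, group as the only term, 12 libraries in 1 fit, prior count of 2 for log2 CPM); DESeq2 1.42.0 was an alternative. Depth per library was 19581551 to 25216977 counts; intervals and floors (3 counts per library) cover counting error only. In simulated data of 16696 genes for Diff. hepatocytes against hepatoblasts, 178 of 200 genes changed 4-fold were called and 0 unchanged genes. The changed genes were drawn without those of low mean counts, and no other gene differed between groups. These rates do not carry over to genes with few counts or to groups that differ in many genes. The level of a gene that shares over 20% of its 75-base sequences with other genes is uncertain (20 genes).

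Genes to be given in most detail were picked by a rule. These were, in each comparison and family, the 3 called genes that changed most, up or down, with a mean of at least 5 CPM. Added to them were, in each group, the 2 genes of each family with the highest level per kb. Not every library value or fold change of the picked genes is printed, and the other genes are given by level or call. Library values of Ugt2b1, Ugt2b37, Ugt1a9, Sult2a2, Sult2a5, Sult2a6, Sult2a7, Gstt2, Ggt1 and Abcc3 were added after values were seen. The genes, lists, markers and motifs were chosen with earlier results of these data known. The alternatives were other scalings, filters and thresholds, DESeq2, glmTreat, fits of 8 libraries, a replicate block and leaving out each library. The labels name the replicates biological, and no batch is named. A gene of the regulator list is not reported here, and imaging data of the study were not analysed here.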

Additional observations from a re-analysis of the deposited data

Results flagged for a closer look

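Among 170 groups of 4 libraries, 16 held a library set apart from the other replicates by Dixon's gap test at the 95% critical value, where chance flags about 1 in 20 groups, or 8.5 here. Mature hepatocyte replicate 4 was above the others for Gsta3 (2050 CPM against 1427 to 1503), Gsta4 (157 CPM) and Sult1d1 (97.6 CPM). Hepatoblast replicate 1 was above the others for Mgst3 (70.5 CPM) and below them for Gstm4 (31.4 CPM). Diff. hepatocyte replicate 1 was above the others for Mgst2 (3.07 CPM) and Sult2b1 (0.994 CPM) and below them for Gstz1 (225 CPM) and Gstm6 (9.25 CPM), and replicate 2 was below the others for Ugt3a2 (0.86 CPM). The rest are single counts or zeros, namely Sult2a4 (0.0322 CPM) and Ugt2b38 (0.0322 CPM) in hepatoblast replicate 1, Ugt1a2 (0 CPM) in hepatoblast replicate 3, Ugt2b37 (0.043 CPM) in Diff. hepatocyte replicate 2, Sult2a6 (0.0621 CPM) in mature hepatocyte replicate 4 and Sult2b1 (0.0685 CPM) in mature hepatocyte replicate 1. The erythroid markers of hepatoblast replicate 1 and the macrophage, bile duct and mesenchymal markers of Diff. hepatocyte replicate 1 were also the highest of their groups, and their part in these values was not tested.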

How the results depend on the processing

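The 34 fold changes picked by the rule above were the largest called changes at a mean of at least 5 CPM, which favoured their keeping the call. Under 11 other settings 349 of 359 of their values kept direction and call and 0 turned. The other 10 kept direction and lost the call. These values were of Gstm2, Gstm5 and Mgst3 in culture against hepatoblasts, Gstm5 in mature hepatocytes against hepatoblasts and Gstp3 in culture against mature hepatocytes. All 408 values without a library kept direction and call. Called genes outside the 34 did lose calls without a library, such as Gsta2 and Ugt1a5 in culture against hepatoblasts. Counts of genes higher and lower in culture than in hepatoblasts were 22 and 6, ranging from 19 to 22 and 6 to 8 without a library. With DESeq2 and the threshold in the test they were 14 and 3, with glmTreat 3 were lower, with library totals 11 were lower, and 15 were lower at an adjusted p under 0.05 without a fold threshold. Mature hepatocytes against hepatoblasts gave 36 to 39 higher and 5 to 6 lower without a library, and 2 lower with DESeq2 and the threshold in the test. Culture against mature hepatocytes gave 9 to 9 higher and 33 to 35 lower without a library. A filter of 10 counts in every library tests fewer genes and gave 8 higher in culture than in hepatoblasts, 20 higher and 3 lower in mature hepatocytes than in hepatoblasts, and 1 higher and 22 lower in culture than in mature hepatocytes. Summed levels (CPM per kb) by library totals were 197.7 and 1636 for UGT, 16.94 and 307.7 for SULT and 1112 and 3418 for GST in hepatoblasts and mature hepatocytes. From genes sharing up to 20% of their sequences they were 89.67 and 1431 for UGT and 954.6 and 3972 for GST in Diff. and mature hepatocytes. With the threshold in the test, glmTreat lost 8, 7 and 7 calls and DESeq2 11, 9 and 9 in culture against hepatoblasts, mature hepatocytes against hepatoblasts and culture against mature hepatocytes. Both lost Gsta2, Gsta4, Gstm2, Gstm5, Gstp1, Mgst3, Sult4a1 and Ugt1a5 in the first, Gsta4, Gstm3, Gstm4, Gstt1, Mgst3, Sult2a1 and Ugt1a7c in the second, and Gstm1, Gstp3, Gstt2, Gstt3, Sult1c2, Ugt1a6b and Ugt2b34 in the third. With DESeq2 alone, the first also lost Gstp2, Sult5a1 and Ugt1a2, the second Gstm5 and Sult2b1, and the third Gstm4 and Gstt1.

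Replicate numbers are shared between groups. Deviations of same-numbered libraries correlated at 0.32, -0.06, 0.25 and 0.18 between hepatoblasts and Diff. hepatocytes and from -0.08 to 0.09 with mature hepatocytes. Since not every pair was above 0.1, and not every library correlated best with its own number, the numbers were not taken as pairs. With the replicate number as a block the counts were 23 and 7, 38 and 5, and 9 and 34 in the comparisons as listed: Ugt1a7c and Ugt1a9 gained a call in culture against hepatoblasts (log2 1.86 and -1.65), Gstt1 and Sult2a1 lost theirs in mature hepatocytes against hepatoblasts, and Gstt2 in culture against mature hepatocytes. At this depth a gene with 0 counts in a library may still be present at under 3 counts.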
